A study of Caenorhabditis elegans with 51 samples.

Results

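The C blastomere of the Caenorhabditis elegans embryo makes epidermis from one set of its descendants and body wall muscle from another. Here the cells that stay outside at gastrulation, the Cxa descendants (C-out), were compared with the remainder of the same embryo after all C descendants had been taken away (C-). The members were chosen by label: every C-out and every C- library whose embryo was accepted, which gave 10 of the 51 libraries of the series, 5 in each group. Embryos 1, 2, 4, 5 and 6 each gave 1 C-out and 1 C- library, so that the replicate number of a library is the number of its embryo, and values below are listed in that order of embryos. The 4 C-out and C- libraries of the 2 rejected embryos (spike-in RNA above the limit set in the study) were left out. The Cxp descendants of the same 5 embryos (C-in, the muscle-forming cells that move inside) are used as a second reference.

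All groups shared 1 strain with a pair of reporters, pR02D3.1::mKate2 and pHLH-1::mNG, no treatment, growth at 20°C, and a stage of about 100 cells. Single embryos were dissected by aspiration under a spinning disk microscope, cells were told apart by the fluorescent reporters, and polyA RNA was amplified directly from the lysate with the SMARTer Ultra Low kit and made into Nextera XT libraries. Each library is therefore a handful of cells from 1 embryo (C-out and C-in) or the larger remainder (C-), and C- is itself a mixture that holds the epidermal, neural, pharyngeal, endodermal and germ line precursors of the other founder cells. Lower RNA from a gene can reflect fewer cells that express it or less RNA in each cell, and these bulk libraries cannot tell them apart.

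As background, epidermal fate in this embryo is set by the GATA factor ELT-1, which acts upstream of the zinc finger factor LIN-26, the nuclear receptor NHR-25 and a second GATA factor, ELT-3. The epidermis then secretes an apical extracellular matrix of zona pellucida domain proteins and cuticle collagens and builds the apical junctions that hold the embryo's shape. C descendants depend on the Caudal homologue PAL-1, and besides epidermis the Cxa cells give rise to a pair of neurons. Most of the epidermis of the larva descends from AB rather than from C, so that epidermal transcripts are present in C- as well.

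Before any comparison, the library labelled C-out replicate 1 stood apart from the other C-out libraries. It held 5330 genes above 25 RPKM (a gene's read count scaled to its length and to the library's total), against 1550 to 2708 in C-out replicates 2, 4, 5 and 6 and 3946 to 5491 in C-. Its Pearson correlation across the 4079 tested genes on the log2(RPKM + 25) scale was 0.439 to 0.459 with the other C-out libraries and 0.562 to 0.721 with the C- libraries, a description over genes that share libraries. C-out replicates 2, 4, 5 and 6 correlated at 0.415 to 0.530 with each other, a range that holds the values of replicate 1. With C- replicates 2, 4, 5 and 6 they correlated at 0.274 to 0.506. Markers of other cell types were high in it: the summed RPKM of elt-2, end-1 and elt-7 (endoderm) was 702, against 7.43 to 58.2 in the other C-out libraries, and that of hlh-3, cnd-1 and ngn-1 (neural precursors) was 559, against 4.85 to 182. The 3 markers of the MS lineage and pharynx summed to 103 against 0.450 to 23, and the 3 germ line markers to 101 against 1.12 to 7.06, where 1 of each list's 3 members exceeded 25 RPKM in that library and tbx-35 was at 0 throughout. The 16 measured heat shock and stress genes summed to 12930.1 in C-out replicate 1 and to 13876 in C- replicate 2, against 1592 to 3887 in the other 8 libraries. The R02D3.1 gene, whose promoter marks C cells in this strain, was at 73.9 RPKM in C-out replicate 1 but at 1020.2 to 3861 in the others, while C- of the same embryo had 394 against 4.1 to 54.7 in the remaining C- libraries. The labels were kept, the counts of calls and most called genes are given with and without embryo 1, and the part of these levels in the results was not tested. Read totals on genes ran from 416394 to 2451237 in C-out and from 1952810 to 3054633 in C-.

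**Figure D1:**
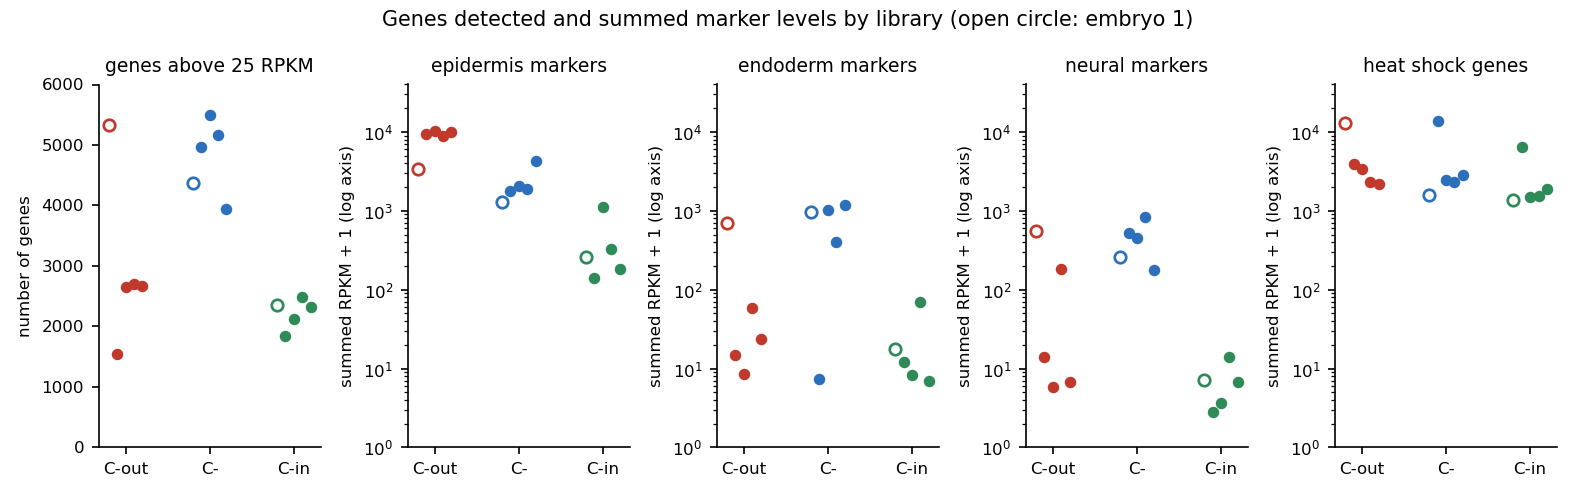
Number of genes above 25 RPKM (linear axis) and summed RPKM + 1 of marker lists (log axis) in each of the 15 libraries, 5 per group, with embryo 1 as an open circle. C-out replicate 1 sits at 5330 genes, 702 for the endoderm markers and 559 for the neural markers, inside or near the range of C- and above the other 4 C-out libraries.

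Epidermal identity was visible first in the apical matrix genes. The cuticle collagen dpy-14 (WBGene00001075, chromosome I) had 2479, 7373, 8036, 6465 and 7676 RPKM in C-out and 561, 1278, 1343, 1227 and 3352 in C-. Every embryo had more dpy-14 in C-out than in its C-, and the groups overlapped only through C-out replicate 1. The log2 fold change was 2.43 ± 0.53 (SE, n = 5 per group) without pairing, with an adjusted p of 0.202, and 2.51 ± 0.38 with the embryo as a block, with an adjusted p of 7.14e-07. Without embryo 1 the unpaired value was 2.37 with an adjusted p of 0.0309, and over the fits with the block that left out 1 embryo the adjusted p ran from 1.49e-06 without embryo 6 to 0.841 without embryo 4. noah-1 (WBGene00016422, chromosome I), a zona pellucida domain protein of the embryonic apical matrix, had 373, 1077, 1031, 979 and 889.7 RPKM in C-out and 150.1, 235.5, 251.9, 216 and 378 in C-. C-out replicate 1 was again the lowest of its group and the only one within the C- range. The log2 fold change of noah-1 was 2.13 ± 0.51 with the block (adjusted p = 0.0118) and 2.22 ± 0.50 without it (adjusted p = 0.202), and 2.23 without embryo 1 (adjusted p = 0.0309). Leaving out 1 embryo at a time from the fit with the block moved this adjusted p from 0.0121 without embryo 1 to 0.841 without embryo 4.

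The epidermal transcription factors did not move as a set. elt-3 (WBGene00001251, chromosome X), which acts late in epidermal differentiation, had 166, 792, 419.9, 768 and 489.8 RPKM in C-out and 16.35, 0.79, 185, 13.7 and 0 in C-. The ranges met only between C-out replicate 1 and C- replicate 4. elt-3 was called higher with the block (log2 fold change 6.14 ± 1.57, adjusted p = 0.0264, from 0.0313 without embryo 4 to 0.323 without embryo 5) and was not called without it (adjusted p = 0.39) or without embryo 1 (adjusted p = 0.206). elt-1 (WBGene00001249, chromosome IV), the factor that sets epidermal fate and one of 3 marker genes given for C-out cells beside dpy-14 and noah-1, did not separate C-out from C-. It had 98.4, 104, 24.9, 14.8 and 3.41 RPKM in C-out and 269.5, 73, 19.8, 158 and 95.3 in C-. It was lower in C-out in 3 of 5 embryos, the groups overlapped, and the log2 fold change was -0.85 ± 1.02 (adjusted p = 0.798), a sign that turned with another scaling of the libraries. In C-in it had 5.68, 3.53, 0, 9.06 and 1.57 RPKM, below C-out of the same embryo in 5 of 5. lin-26 had 202, 4.62, 605, 701 and 696 RPKM in C-out and 112.3, 174, 193, 183 and 332 in C-. It was nearly absent from C-out replicate 2, where it was at 4.62, and high in replicates 4, 5 and 6. nhr-25 ranged over 2.18 to 173 RPKM in C-out and 28.7 to 181 in C-, with full overlap. Of 13 listed epidermal transcription factors 7 were tested. With the block 1 was called higher and 0 lower, beside 0.686% and 0.049% of all genes tested. The median log2 fold change of the 7 was 0.03 without the block and -0.99 with it, beside -0.08 and -1.10 over all genes tested.

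The reporters' own genes check the dissection and are no finding, since their promoters were used to tell the cells apart. R02D3.1 (WBGene00019819, chromosome IV), listed as aass-1 in the current annotation, had 73.9, 3861, 1020.2, 1983 and 1515 RPKM in C-out and 394, 4.1, 5.59, 54.7 and 17.1 in C-. Embryos 2, 4, 5 and 6 were far apart and embryo 1 ran the other way. The fitted difference was 6.54 ± 0.77 on the log2 scale with the block (adjusted p = 3.57e-11, from 3.32e-12 without embryo 1 to 0.322 without embryo 4) and 4.69 ± 1.19 without it (adjusted p = 0.239), and without embryo 1 the unpaired value was 7.18 (adjusted p = 0.00727). grl-19 overlaps this gene on the opposite strand, and the sources do not say whether counting used strand. hlh-1 (WBGene00001948, chromosome II), the MyoD homologue, had 113, 9.14, 2.64, 55.8 and 9.71 RPKM in C-out and 218, 55.2, 48.5, 82.8 and 104 in C-, lower in C-out in 5 of 5 embryos with overlapping groups (log2 fold change -1.32 ± 1.09, adjusted p = 0.683). In C-in it had 1148, 805, 587, 249 and 691 RPKM. The posterior homeobox gene vab-7 was at or below 0.89 RPKM in every C-out library and at 0.79, 919.5, 1.98, 93.3 and 211 in C-in. The nuclear receptor gene nhr-171 was seen at 76 and 168 RPKM in C-out replicates 2 and 5 and was listed at 0 in the others. Both vab-7 and nhr-171 were too low in most libraries to enter the test. pal-1, the Caudal homologue that specifies C, was lower in C-out than in C- in 5 of 5 embryos (128, 3.33, 1.93, 23.7 and 98.6 against 253, 146, 76.2, 201 and 124 RPKM), and the groups overlapped.

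**Figure D2:**
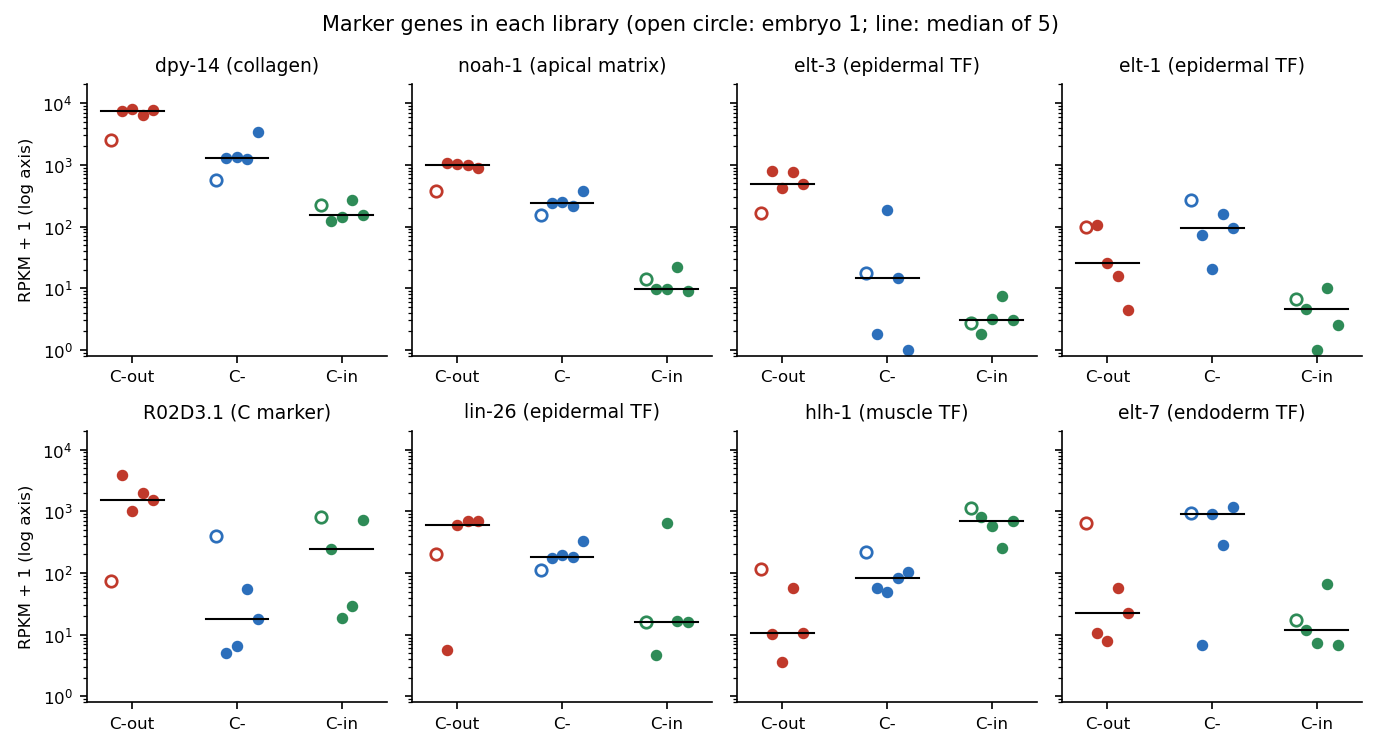
RPKM + 1 on a log axis of 8 marker genes in the 15 libraries, with embryo 1 as an open circle and a line at the median of 5. The C-out points of dpy-14 and noah-1 lie above those of C-in in every library, elt-1 has a lower median in C-out than in C-, and R02D3.1 in C-out replicate 1 (73.9 RPKM) lies among the C- values.

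Across all genes the outcome depended on how embryo 1 and the pairing were treated. edgeR's quasi-likelihood test without pairing called 0 of 4079 genes higher (0%) and 0 lower (0%) at a Benjamini-Hochberg adjusted p under 0.05, although 211 genes were higher and 143 lower at an unadjusted p under 0.05, and DESeq2 on the same genes called 448 higher and 8 lower. With the embryo as a block, 28 genes (0.686%) were called higher in C-out and 2 (0.049%) lower. Without embryo 1 and without pairing, 37 of 3861 genes (0.958%) were higher and 4.43% lower, and with the block and without embryo 1, 40 (1.04%) were higher and 33 (0.855%) lower. Leaving out embryos 2, 4, 5 and 6 in turn from the fit with the block gave 23, 6, 10 and 21 higher calls and 0 lower calls each. Of the 28 genes called higher, 27 remained called without embryo 1, 12 without embryo 2, 6 without embryo 4, 9 without embryo 5 and 18 without embryo 6, and only dct-6 and F39B3.2 were called in each of these 5 fits. The scale matters for the sign of small differences: the median log2 fold change of all tested genes was -0.08 with TMM factors, 0.77 with RLE size factors, -0.43 with library totals alone and -1.10 with the block. In 16 genes (0.392%) every C-out library lay above every C- library and in 104 (2.55%) below. Without embryo 1, 123 of the same 4079 genes (3.02%) had every C-out library above and 660 of the 4079 had every one below. The C-out libraries left in had 1550 to 2708 genes above 25 RPKM, against 3946 to 5491 in C-. The part of this difference in detection in the 660 was not tested.

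The 28 genes called higher with the block had log2 fold changes of 1.47 to 9.89 (median 4.91). C-out was above C- in all 5 embryos for 15 of them and in 4 of 5 for 13. In 11 of the 28 the exception was embryo 1, where C-out was the lower of the pair, and in each of embryos 5 and 6 there was 1 such gene and in embryos 2 and 4 there was 0. C-out replicate 1 was the lowest C-out library in 21 of them, and C- replicate 1 the highest C- library in 11. dct-6 (WBGene00017773, chromosome III) shows the pattern: it had 3.31, 428, 517, 709.6 and 471 RPKM in C-out and 76, 0.2, 0.55, 0.73 and 0.16 in C-. The C-out library of embryo 1 was close to the C- level of the other embryos, and the C- library of embryo 1 was above its own C-out. Its fitted log2 fold change was 9.89 ± 1.40 with the block (adjusted p = 7.20e-08, from 1.39e-09 without embryo 1 to 0.0322 without embryo 4) and 5.2 ± 1.62 without it (adjusted p = 0.326). F39B3.2 (WBGene00018191, chromosome X; frpr-7, a predicted neuropeptide receptor) had 82.3, 799, 305, 553 and 443 RPKM in C-out and 139, 0.88, 1.33, 1.01 and 0.55 in C-, where C- replicate 1 again exceeded C-out replicate 1 and the other 4 C- libraries were below 1.40. Its log2 fold change was 8.54 ± 1.46 with the block (adjusted p = 1.49e-05, from 4.70e-06 without embryo 1 to 0.0331 without embryo 4) and 4.42 ± 1.43 without it (adjusted p = 0.346). F39B3.4 overlaps it on the opposite strand. T22B7.3 and T27D12.1, which have no assigned role in the annotation used, were at 0.4 and 0.51 RPKM in C-out replicate 1 and at 260.2 and 239 in C- replicate 1, against 53.5 to 777 and 31.5 to 598 in the other C-out libraries and at most 2.64 in the other C- libraries. These were called with the block (adjusted p = 0.0254 for each), and without embryo 1 each remained called without the block (adjusted p = 0.018 and 0.0309), but each lost its call with the block when embryo 2, 4, 5 or 6 was left out (from 0.002 without embryo 1 to 0.345 without embryo 2 for T22B7.3 and from 0.00177 without embryo 1 to 0.529 without embryo 5 for T27D12.1).

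**Figure D3:**
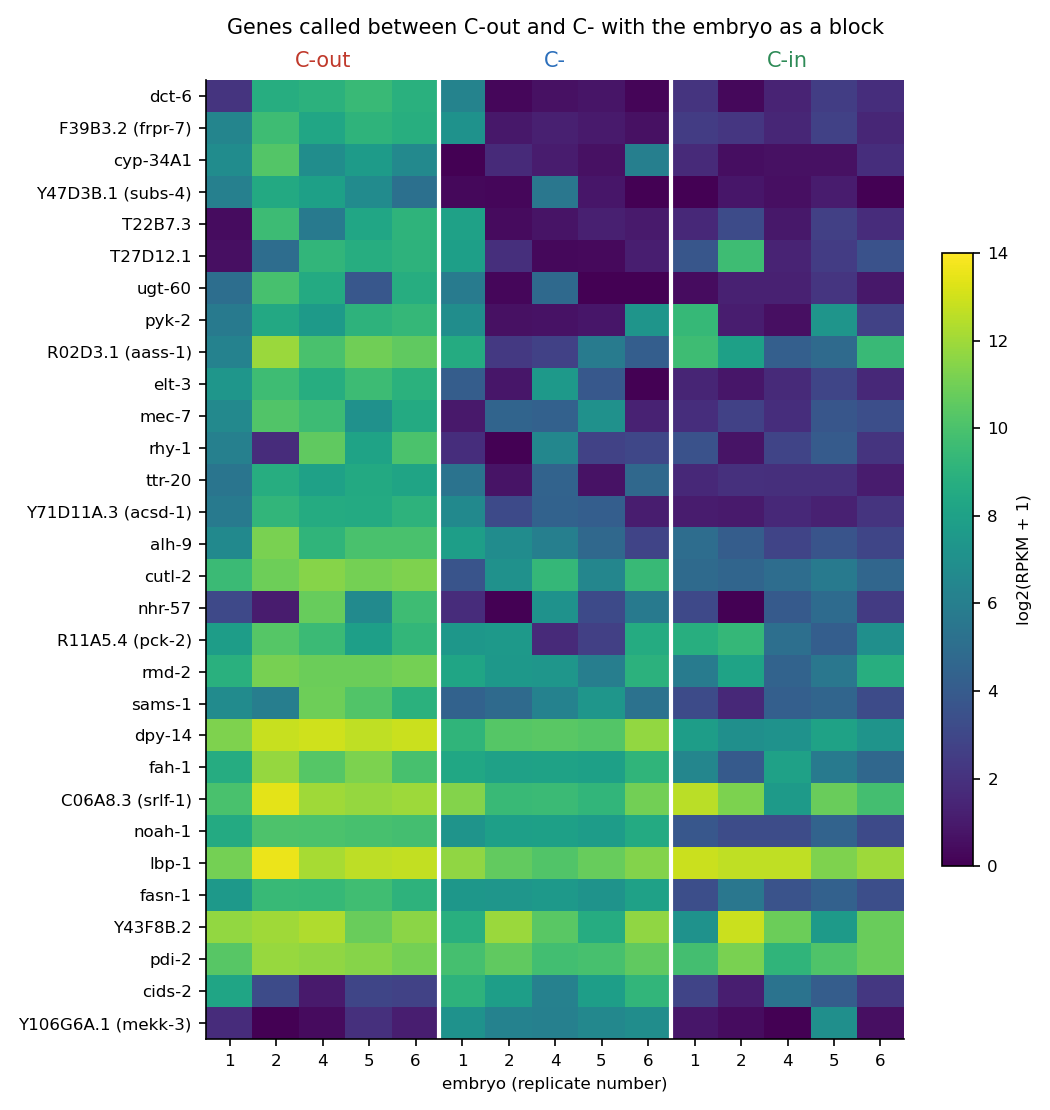
log2(RPKM + 1) of the 30 genes called between C-out and C- with the embryo as a block, ordered by log2 fold change, in the 5 C-out, 5 C- and 5 C-in libraries. The first column (C-out replicate 1) is darker than the other C-out columns for most of the 28 higher genes, and dct-6, T22B7.3 and T27D12.1 are bright in C- replicate 1.

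Apical matrix and cuticle collagen genes leaned one way. Of 28 listed, 27 were found and 15 tested, and all 15 had a log2 fold change above 0, with a median of 2.22 without the block and 1.93 with it, beside -0.08 and -1.10 over all genes tested. Of all genes tested 47.8% were above 0 without the block and 28.2% with it. The list holds the markers dpy-14 and noah-1, and a gene could pass the filter through the 5 C-out libraries alone, so the shared direction is no test. With the block and without embryo 1, 15 of 16 listed genes were above 0, beside 26.8% of all. Called genes numbered 0 without the block, 2 with it (dpy-14 and noah-1) and 3 of 16 without embryo 1, beside 0%, 0.686% and 0.958% of all genes tested, and 0 were lower in each fit. Their summed RPKM was 5300.3 in C-out replicate 1 and 13673 to 18476 in the other C-out libraries, against 1673 to 6360.4 in C-. The collagens sqt-3 and dpy-17, both needed for the first cuticle, had 192, 497, 1418, 916 and 239.6 and 445, 311, 2294, 1536 and 1405 RPKM in C-out and 52.9, 98.9, 285, 197 and 92 and 204, 249, 513, 297 and 358 in C-. They were higher in C-out in 5 of 5 embryos with overlapping groups, and their adjusted p with the block were 0.172 and 0.173. The matrix genes let-653, sym-1, fbn-1 and lpr-3 had log2 fold changes of 2.96, 1.77, 1.89 and 1.51 without the block, none of them called (adjusted p of 0.189, 0.182, 0.172 and 0.289 with it). let-653, which codes for a zona pellucida domain protein of the lumen-lining matrix, varied most among embryos: it had 129, 1347, 348, 234 and 76.3 RPKM in C-out, highest in replicate 2. cutl-2 (WBGene00013145, chromosome II), a cuticlin-like gene that was not on the list, had 749, 1953, 2778, 2145 and 2520.4 RPKM in C-out and 11.4, 136, 647, 84.1 and 692 in C-. Its groups did not overlap, C-out replicate 1 included, and its log2 fold change was 4.04 ± 0.63 with the block (adjusted p = 1.72e-06, from 4.30e-06 without embryo 6 to 0.227 without embryo 4), 3.06 ± 0.85 without it (adjusted p = 0.268) and 2.92 without embryo 1 (adjusted p = 0.0398).

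Of 10 listed enzymes that act on newly made collagen 9 were tested. With the block 1, pdi-2, was called higher, beside 0.686% of all genes tested. The median log2 fold change of the 9 was 0.93 with the block, beside -1.10 over all genes tested. pdi-2 (WBGene00003963, chromosome X) codes for the protein disulfide isomerase that forms the beta subunit of prolyl 4-hydroxylase, and it had 1311, 3623, 3245, 2816 and 2175 RPKM in C-out and 939, 1534, 875, 962 and 1505 in C-. It was higher in C-out in 5 of 5 embryos, the groups overlapped only through C-out replicate 1, and it had a log2 fold change of 1.47 ± 0.41 with the block (adjusted p = 0.0498, from 0.0204 without embryo 1 to 0.844 without embryo 4). The hydroxylase alpha subunits dpy-18 and phy-2 had 113, 1066, 277, 405 and 289 and 108, 649.6, 426, 423 and 635 RPKM in C-out and 168, 73.5, 104, 85.5 and 74.2 and 14.1, 18.4, 121, 43.1 and 162 in C-. dpy-18 was called without embryo 1 (adjusted p = 0.0399) and not with all 5 embryos (adjusted p = 0.213 with the block), and phy-2 in neither (0.0561 and 0.0561). pdi-1, pdi-3, dpy-11, bli-4 and ero-1 overlapped between the groups and were not called (adjusted p of 0.462 to 0.886 with the block). let-268, the procollagen lysyl hydroxylase used for basement membrane collagen, had 107, 11.6, 2.45, 40.2 and 3.8 RPKM in C-out, 179, 98, 127, 143 and 106 in C- and 280.5, 1461, 668, 225 and 226 in C-in.

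Junction and attachment genes were mixed. Of 24 listed genes 11 were tested and 0 were called in either direction with or without the block, with a median log2 fold change of 0.10 without it and -0.24 with it. sma-1 (beta-heavy spectrin, which acts in epidermal elongation) had 29.4, 155, 129, 162 and 126 RPKM in C-out and 13.6, 45, 41.9, 29.2 and 49.5 in C-, higher in 5 of 5 embryos. With edgeR it was called in the unpaired fit without embryo 1 (log2 fold change 2.11, adjusted p = 0.0375). It was not called with all embryos and the block (adjusted p = 0.119). DESeq2 with all embryos called it (adjusted p = 0.00166). dlg-1, which codes for a scaffold of the apical junction, had 164, 479, 373, 315 and 353 RPKM in C-out and 26, 197, 179, 157 and 193 in C-, again higher in 5 of 5 embryos (log2 fold change 1.59 ± 0.62, adjusted p = 0.189 with the block). The catenin genes hmp-1 and hmp-2 ranged over 51.2 to 414 and 1.99 to 126 RPKM in C-out and 97.1 to 214 and 70.3 to 104 in C-, with overlap. afd-1 (afadin) had 16.37, 5.57, 13.1, 5.5 and 27.4 RPKM in C-out and 26.2, 63.3, 36.9, 48.8 and 7.56 in C-.

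Of the called genes, alh-9, Y71D11A.3 and fah-1 code for enzymes of amino acid degradation. The pathway lists in this and the other paragraphs on enzymes, HIF-1 and tubulins were written after the values were seen, no list was tested, and they are described only. Of 8 genes listed for lysine and tryptophan degradation 4 were found and 3 tested. One of these is the reporter gene R02D3.1, which is no finding, and haao-1 was too low for the test. alh-9 (WBGene00000115, chromosome III) codes for the homologue of a semialdehyde dehydrogenase of lysine degradation. alh-9 had 98.3, 2357, 575, 1000.5 and 991 RPKM in C-out and 228, 109.6, 64.1, 25.11 and 6.22 in C-. It was higher in C-out in embryos 2, 4, 5 and 6 and lower in embryo 1, and its log2 fold change was 4.56 ± 0.84 with the block (adjusted p = 1.24e-04, from 7.35e-06 without embryo 1 to 0.348 without embryo 4) and 5.0 without embryo 1 (adjusted p = 0.0309). Y71D11A.3 (WBGene00022104, chromosome III; acsd-1, named for a decarboxylase of tryptophan degradation) had 52.7, 587, 387, 376 and 533 RPKM in C-out and 100.5, 7.84, 19.9, 17.1 and 1.2 in C-, with the same reversal in embryo 1 (adjusted p = 0.0498 with the block, from 0.0123 without embryo 1 to 0.459 without embryo 6).

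In phenylalanine and tyrosine degradation all 8 genes of the pathway list had a higher mean RPKM in C-out than in C-. Of the 6 that entered the test 1 was called higher with the block and 2 without embryo 1, beside 0.686% and 0.958% of all genes tested. The summed RPKM of the 8 was 1279 in C-out replicate 1, 4458 to 7486 in the other C-out libraries and 489.6 to 1551 in C-. fah-1 (WBGene00019620, chromosome X), for the last enzyme of the pathway, had 409.7, 3479, 1284, 2371 and 962 RPKM in C-out and 326, 257, 271, 246 and 579.8 in C-. It was higher in 5 of 5 embryos, with a log2 fold change of 2.42 ± 0.59 with the block (adjusted p = 0.0168, from 0.00425 without embryo 1 to 0.841 without embryo 4) and 2.94 without embryo 1 (adjusted p = 0.0309). qdpr-1, which regenerates the cofactor of phenylalanine hydroxylase, had 275, 2213, 1517, 641 and 1322 RPKM in C-out and 160.3, 140.2, 202, 125 and 288 in C-. It was also higher in 5 of 5 embryos, was called without embryo 1 (adjusted p = 0.0309) and was not called with all embryos (adjusted p = 0.0635 with the block and 0.202 without). hpd-1 had 47.9, 180.2, 907, 916 and 644 RPKM in C-out and 99.3, 0.22, 104, 79.1 and 46.4 in C-, and was not called with all embryos (adjusted p = 0.0931 with the block) but was with the block and without embryo 1 (adjusted p = 0.0252). pah-1, the phenylalanine hydroxylase gene, was too low in C- for the test: it had 51.4, 2.34, 392.3, 147 and 224 RPKM in C-out and at most 2.59 in C-. tatn-1, for tyrosine aminotransferase, reached 1749 RPKM in C-out replicate 5 but was at 0.51 in replicate 2.

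Of 13 genes listed for the methionine cycle 9 were found and 8 tested. Of these 8, 1 was called higher with the block and 3 without embryo 1, beside 0.686% and 0.958% of all genes tested. Among the listed genes 2 had more RPKM in C-out than in C- in 5 of 5 embryos, sams-1 and ahcy-1. sams-1 (WBGene00008205, chromosome X), one of 4 genes for S-adenosylmethionine synthetase on the list, had 108, 63.6, 1935, 1196 and 486 RPKM in C-out and 20.4, 27.2, 74.2, 160.3 and 37.6 in C-. It was higher in C-out in 5 of 5 embryos, lowest there in replicate 2 and highest in replicate 4, and was called with the block (log2 fold change 3.28 ± 0.76, adjusted p = 0.00759, from 0.00186 without embryo 2 to 0.734 without embryo 4) and without embryo 1 (adjusted p = 0.0386). Its paralogues sams-3, sams-4 and sams-5 had 267, 12.2, 311, 300.4 and 26.6, 111, 4.51, 191, 110.1 and 27.5 and 146, 1.68, 76.3, 30.8 and 5.62 RPKM in C-out and 187, 246, 213, 271 and 165, 83.8, 85.1, 111.8, 57 and 38.7 and 293, 24.5, 315, 46.3 and 109 in C-, with overlap in each. Reads shared between near-identical copies of this family could be split by the counting. ahcy-1, for S-adenosylhomocysteine hydrolase, had 345, 1074, 1050.3, 999 and 595 RPKM in C-out and 279, 146, 250.1, 174 and 303 in C-. Its groups did not overlap, embryo 1 included, and it was called without embryo 1 (log2 fold change 2.45, adjusted p = 0.0374) but not with the block and all 5 (adjusted p = 0.167). The phosphoethanolamine methyltransferase genes pmt-1 and pmt-2, whose enzymes use S-adenosylmethionine to make phosphocholine, had 1.06, 2085, 12, 1515 and 795 and 396, 1375, 670.1, 1220.2 and 769 RPKM in C-out and 284, 2.1, 0.91, 2.42 and 3.97 and 522, 295, 203, 259 and 392.3 in C-.

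**Figure D4:**
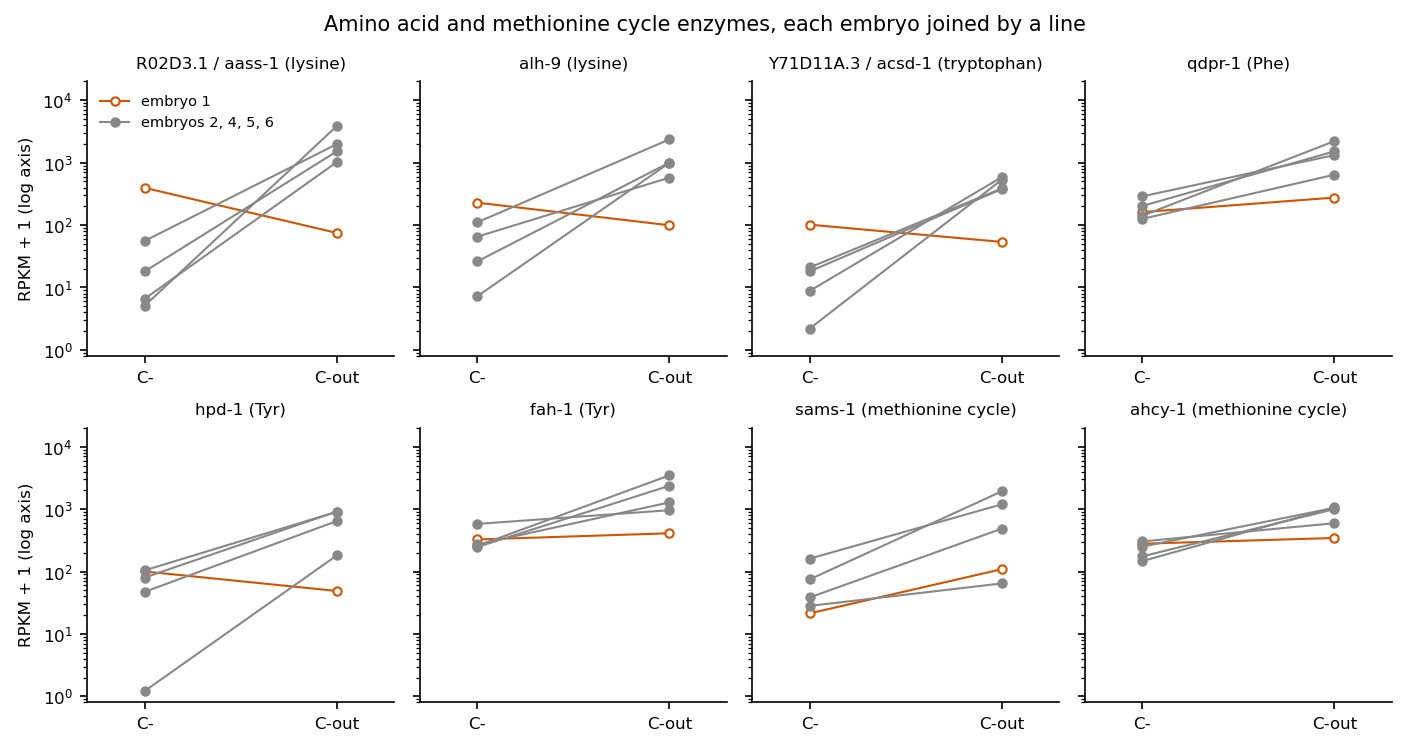
RPKM + 1 on a log axis of 8 genes of amino acid degradation and the methionine cycle, with the C- and C-out libraries of each embryo joined by a line and embryo 1 drawn in orange with open circles. In embryos 2, 4, 5 and 6 every line slopes up to C-out, and in embryo 1 the lines of R02D3.1, alh-9, Y71D11A.3 and hpd-1 slope down.

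Of 21 listed genes of fatty acid synthesis and binding 10 were tested. With the block 2, fasn-1 and lbp-1, were called higher, beside 0.686% of all genes tested. The median log2 fold change of the 10 was 0.58 with the block, beside -1.10 over all genes tested. The desaturase genes fat-3 and fat-4, the elongase gene elo-1 and the binding protein gene lbp-5 had log2 fold changes of -1.95, -2.33, -1.70 and -3.45 with the block and were not called (adjusted p of 0.366 to 0.657). fasn-1 (WBGene00009342, chromosome I), for fatty acid synthase, had 180.3, 687, 657, 847 and 534 RPKM in C-out and 170.6, 164, 186, 146 and 258 in C-, a narrow range in C-. It was higher in C-out in 5 of 5 embryos (log2 fold change 1.87 ± 0.43 with the block, adjusted p = 0.00656, from 4.74e-04 without embryo 1 to 0.841 without embryo 4) and was called without embryo 1 (adjusted p = 0.0309). pod-2, for acetyl-CoA carboxylase, the step before it, had 19.5, 124, 338, 344 and 12.4 RPKM in C-out and 59.2, 41.1, 59.7, 32.9 and 109.8 in C-, with overlap. The fatty acid binding protein gene lbp-1 (WBGene00002253, chromosome X) was among the most abundant of the called genes, at 2186, 12348, 4654, 6157 and 6694 RPKM in C-out and 3273, 1610.0, 1194, 1695 and 2722 in C-. It was higher in C-out in embryos 2, 4, 5 and 6 (log2 fold change 1.88 ± 0.49 with the block, adjusted p = 0.0315, from 0.00208 without embryo 1 to 0.841 without embryo 4). Its level in C-in, 7475, 6592, 6578, 2472 and 3975 RPKM, overlapped that in C-out. pyk-2 (pyruvate kinase, a glycolytic enzyme) and R11A5.4 (pck-2, for phosphoenolpyruvate carboxykinase, a gluconeogenic enzyme, with suro-1 on the opposite strand) had 51.8, 345, 195, 532 and 632 and 218, 1247, 759, 236 and 613 RPKM in C-out and 115, 0.57, 0.62, 0.83 and 154 and 170.3, 179, 2.19, 5.17 and 387 in C-. Both were called with the block (adjusted p = 0.0321 and 0.0315, at most 0.569 without it; each was lost when embryo 2, 4 or 5 was left out, up to 0.807 and 0.841 without embryo 4) and neither without embryo 1 when unpaired (adjusted p = 0.284 and 0.309).

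Some genes known as targets of the hypoxia factor HIF-1 were high in some C-out libraries and not in others. rhy-1 (WBGene00012324, chromosome II), a regulator and target of HIF-1, had 66.9, 2.41, 1538, 275 and 1068 RPKM in C-out and 2.62, 0, 90, 5.72 and 6.77 in C-. nhr-57 (WBGene00003647, chromosome V), a nuclear receptor gene and HIF-1 target, had 7.49, 1.07, 1739, 105 and 801 RPKM in C-out and 2.42, 0, 142, 7.95 and 51.8 in C-. In both genes C-out replicates 4 and 6 were highest, replicate 5 was intermediate, replicate 2 was at the C- level, and within each embryo C-out still exceeded C-. In embryo 2 that excess was 2.41 and 1.07 RPKM against 0, which is within counting error, so that a rise in every embryo is not shown. Both genes were called with the block (adjusted p = 2.29e-06 and 0.0315) and not without it (adjusted p = 0.297 and 0.529) or without embryo 1 (adjusted p = 0.131 and 0.268). Neither passed the filter on low values when embryo 4 was left out, nor did nhr-57 when embryo 6 was, and nhr-57 also lost its call without embryo 5 (adjusted p = 0.282). Of 10 listed HIF-1 pathway genes 9 were found, and 4 of these had a higher mean RPKM in C-out than in C-. Among the 6 tested, rhy-1 and nhr-57 were the 2 called higher with the block, beside 0.686% of all genes tested. F22B5.4, also listed, was at 1.18 RPKM in C-out replicate 2 and at 0 in the other C-out libraries. aha-1 and vhl-1 had lower means in C-out (14.5 and 9.2 RPKM) than in C- (35.6 and 43.7). K10H10.2 (cysl-2, a cysteine synthase-like gene and a further HIF-1 target) had 99.9, 849, 719, 273 and 680.5 RPKM in C-out and 123, 1.73, 85.6, 15.8 and 17.3 in C-, and was called without embryo 1 (adjusted p = 0.0386) but not with all embryos (0.0561 with the block). hif-1 itself had 98.8, 15.4, 164, 95.1 and 41.4 RPKM in C-out and 47.5, 116, 56, 103 and 107 in C-, with overlap, and egl-9, for the prolyl hydroxylase that destabilises HIF-1, had 12.5, 0.57, 0.2, 82.5 and 4.19 and 7.94, 45.6, 36.5, 35.9 and 98.8.

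Among the remaining called genes, rmd-2 (WBGene00007786, chromosome V), of the regulator of microtubule dynamics family, had 479, 2233, 1866, 1883 and 2133 RPKM in C-out and 301, 176, 163, 63.1 and 500.1 in C-, with C-out replicates 2, 4, 5 and 6 in a narrow range and replicate 1 at the upper end of C-. Its log2 fold change was 3.38 ± 0.67 with the block (adjusted p = 3.80e-04, from 2.19e-04 without embryo 1 to 0.801 without embryo 4) and 3.47 without embryo 1 (adjusted p = 0.0309). mec-7 (WBGene00003171, chromosome X), a beta-tubulin best known from the touch receptor neurons, had 94.9, 1174, 762, 135 and 378 RPKM in C-out and 0.94, 21.9, 19.2, 135 and 1.53 in C-, whereas the general beta-tubulin gene tbb-2 had 289.8, 209, 235.1, 889 and 502 and 294, 473, 225, 383 and 403. mec-7 was called with the block (log2 fold change 5.97 ± 1.15, adjusted p = 2.79e-04, from 5.03e-05 without embryo 5 to 0.178 without embryo 4). In the unpaired fit without embryo 1 it was not called (adjusted p = 0.0568). The cytochrome P450 gene cyp-34A1 had 111.8, 1218, 115, 202 and 96.7 RPKM in C-out and 0, 2.19, 1.07, 0.57 and 65.9 in C-, and the transthyretin-related gene ttr-20 had 43.2, 418, 256, 359.5 and 289 and 38.7, 0.7, 20.6, 0.6 and 25.9. In both of them the groups did not overlap in any embryo, C-out replicate 1 included, and the adjusted p with the block were 1.71e-04 and 0.0292 (from 2.71e-06 without embryo 6 to 0.147 without embryo 2 for cyp-34A1, from 0.0116 without embryo 1 to 0.529 without embryo 5 for ttr-20). In the unpaired fit without embryo 1 the adjusted p were 0.114 for cyp-34A1 and 0.0436 for ttr-20. ugt-60, a UDP-glucuronosyltransferase gene, had 32.5, 963, 372, 13.1 and 421 RPKM in C-out and 56.4, 0.18, 27, 0 and 0 in C-. Y47D3B.1 (subs-4) had 67.2, 358, 249, 107 and 35.6 and 0.23, 0.19, 46.5, 0.82 and 0, and overlaps nlp-21 on the opposite strand. With the block and without embryo 1 the adjusted p were 3.67e-04 for ugt-60 and 0.0339 for Y47D3B.1. C06A8.3 (srlf-1) and Y43F8B.2 were abundant in both groups, at 1001 to 10839.9 and 1771 to 5189.6 RPKM in C-out and 598 to 2716 and 403 to 3800.1 in C-. In C-in these 2 genes ran over 195 to 5894 and 142 to 7536 RPKM. Their adjusted p with the block were 0.0178 and 0.0422 with all embryos. Without embryo 1 they were 3.29e-04 and 0.0926, so that Y43F8B.2 lost its call. Among the 10 genes with the smallest unadjusted p that were higher without the block, 2 not yet described were gst-20 (a glutathione S-transferase gene, 652, 1664, 3973, 649.8 and 1939 RPKM in C-out and 516, 272, 239.6, 201 and 532 in C-) and C31C9.2 (phdh-1, for phosphoglycerate dehydrogenase of serine synthesis, 194, 2461, 979, 701 and 1191 and 388, 94.6, 282, 132 and 119, with tag-10 on the opposite strand). Neither passed with all embryos (adjusted p = 0.0934 and 0.0962 with the block), and both passed without embryo 1 (adjusted p = 0.0386 and 0.0309).

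Genes called lower in C-out were spread over levels in C- much as the tested genes were. Tested genes under 1 RPKM made up 5.47% to 17.7% in C-out replicates 2, 4, 5 and 6 and 0.515% to 5.69% in C-. The part of transcripts missed in libraries of few cells in the lower calls was not tested. Without embryo 1 they included 86 of the 1918 genes tested with a mean under 100 RPKM in C-, 81 of 1812 between 100 and 500 and 4 of 131 at 500 or more. Y106G6A.1 (WBGene00013694, chromosome I; mekk-3, a MAP kinase kinase kinase gene) had 2.41, 0, 0.32, 2.84 and 1.27 RPKM in C-out and 139.8, 73, 67.1, 93.1 and 116 in C-, with no overlap. It was called lower with the block (log2 fold change -6.37 ± 1.70, adjusted p = 0.0361, from 0.0441 without embryo 1 to 0.282 without embryo 5) and without embryo 1 (adjusted p = 0.0309), and missed without the block (adjusted p = 0.202). cids-2 (WBGene00009451, chromosome I) had 302, 8.09, 1.02, 6.73 and 5.69 RPKM in C-out and 520.0, 228, 70.9, 226 and 596 in C-, where C-out replicate 1 lay within the C- range and the other C-out libraries below it (log2 fold change -4.53 ± 1.19 with the block, adjusted p = 0.0315, from 0.0339 without embryo 1 to 0.841 without embryo 4). pup-2, for a poly(U) polymerase, had 46.3, 7.05, 1.06, 11.2 and 3.35 RPKM in C-out and 193, 201, 161, 133 and 284 in C-, and was called without embryo 1 (adjusted p = 0.0309, 0.0928 with all embryos and the block). gip-2, for a component of the gamma-tubulin complex, had 2.95, 7.13, 0.99, 8.7 and 1.3 RPKM in C-out and 159, 146, 47, 104 and 130.1 in C-. fsn-1, for an F-box protein with a synaptic role, was at most 13.4 RPKM in C-out, in replicate 1, and 75.7 to 165 in C-. atx-3, the ataxin-3 deubiquitinase gene, was listed at 0 in C-out replicates 2, 4, 5 and 6 and had 5.61 RPKM in replicate 1, against 27.8 to 75.1 in C-. nfya-1 (a subunit of the NF-Y transcription factor), btb-1, C08H9.16, C14C10.6 (erg-28) and T22B11.5 (ogdh-1, of the oxoglutarate dehydrogenase complex) complete the 10 with the smallest unadjusted p that were lower, at most 9.93 RPKM in any C-out library and at least 34.1 in any C- library. None of these last 8 genes, gip-2, fsn-1 and atx-3 included, was called with the block and all embryos (adjusted p of 0.0649 to 0.198), and 3 of them were without embryo 1 (fsn-1, atx-3 and C08H9.16, adjusted p = 0.0309, 0.0309 and 0.0362). In C-in, gip-2 was at 612 RPKM in replicate 4, and C14C10.6 at 883 in replicate 5, and both were at most 5.75 in the other C-in libraries. Low levels were not particular to C-out: atx-3, nfya-1, btb-1 and cids-2 were at most 1.47, 0.98, 4.89 and 39.6 RPKM in C-in. Y106G6A.1 and T22B11.5 had 125 and 147 in C-in replicate 5 and at most 1.73 in the others. fsn-1 and C08H9.16 had 77.7 to 168 in C-in replicates 1 and 4 and at most 3.43 in the others. pup-2 ran over 8.85 to 184 in C-in.

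Of the marker lists of other fates, those of MS and neural precursors held called genes, without embryo 1 only, in a fit that called 4.43% of all genes lower. For MS and pharynx 3 of 17 measured genes were tested: 0 were called with all embryos and 2 were called lower without embryo 1, the organogenesis factors ceh-34 and eya-1. ceh-34 had 397, 4.01, 1.39, 8.17 and 0 RPKM in C-out and 0.34, 329, 211, 220.2 and 173 in C-, so that C-out replicate 1 was the highest of all 10 libraries and C- replicate 1 was near 0. eya-1, its partner, had 88, 3.29, 1.95, 8.6 and 13.2 and 103, 145, 152, 157 and 95.8. For neural precursors 13 of 22 genes were tested, with 0 calls with all embryos and 3 lower of 8 without embryo 1 (cnd-1, vab-3 and sox-2), where 3 of the 8 had a log2 fold change above 0. The proneural gene cnd-1 had 228, 2.79, 2.59, 5.69 and 2.54 RPKM in C-out and 76.8, 123, 92.5, 463 and 173 in C-. hlh-14, another proneural gene, was instead at 3021 and 1114 RPKM in C-out replicates 2 and 6, above its C- range of 1.6 to 369, and at 9.1 and 7.51 in replicates 4 and 5. It was not called (adjusted p = 0.894 with the block and 0.284 without embryo 1). The endoderm factor elt-7 had 649, 9.77, 6.78, 55.4 and 21.6 RPKM in C-out and 936, 5.75, 908, 284 and 1178 in C-, and no endoderm gene was called. Of 18 measured germ line and P granule genes, 0 reached the level needed for the test. For body wall muscle 7 of 21 genes were tested, 1 of them above 0, with a median log2 fold change of -0.84 without the block, and 0 were called.

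Signalling and cell cycle genes gave few calls. Of 14 tested Wnt and beta-catenin genes 0 were called with all embryos and 2 were lower without embryo 1, beside 4.43% of all genes in that fit. These were sys-1, a beta-catenin gene of the asymmetry pathway (194, 5.54, 1.22, 15.4 and 4.81 RPKM in C-out and 39.3, 164, 159, 127 and 214 in C-), and the Frizzled receptor gene cfz-2 (108, 1.77, 0.61, 2.7 and 1.21 and 71, 185, 54.1, 212 and 61.4). The ligand gene mom-2 had 96.9, 3.8, 290.0, 103 and 277 RPKM in C-out and 59.9, 224, 2.11, 15.2 and 79.6 in C-, with overlap. Of 17 tested cell cycle genes 0 were called with all embryos, and without embryo 1 the number was 1 of 16, near the 4.43% of all genes. This was wee-1.3, for an inhibitory kinase of CDK-1, called lower (36.2, 1.08, 0.75, 7.66 and 1.63 RPKM in C-out and 8.11, 96, 44.2, 77.3 and 50.6 in C-). The kinase gene cdk-1 had 318, 21.5, 4.56, 67.4 and 77.7 RPKM in C-out and 461, 339, 415, 324 and 323 in C-, with no overlap, and was not called (log2 fold change -1.78 ± 0.89, adjusted p = 0.247 with the block and 0.114 without embryo 1). The CDK inhibitor cki-2 ran the other way, at 240.0, 747, 339, 698 and 503 RPKM in C-out and 192, 98.1, 172, 273 and 506 in C-, also not called (adjusted p = 0.475 with the block). Only 1 of 28 hedgehog-related genes was tested. This was wrt-10, at 1069, 3885, 2011, 1552 and 1679 RPKM in C-out and 258, 915, 883, 798 and 1559 in C-, higher in 5 of 5 embryos and not called (log2 fold change 1.66 ± 0.59, adjusted p = 0.169 with the block). hog-1 of the same family reached 1028 and 278 RPKM in C-out replicates 2 and 4 and was listed at 0 in the other C-out libraries. The only tested Notch pathway gene, lag-1, had 104, 359.7, 2.26, 52 and 7.59 RPKM in C-out and 149, 64.2, 150.01, 101 and 105 in C-. Of 12 tested heat shock and stress genes 0 were called with all embryos, and F44E5.5, an hsp-70 family gene with a near-identical neighbour, had 2395 RPKM in C-out replicate 1 and 2986 in C- replicate 2, beside at most 166 in the other 8 libraries. Without embryo 1, 0 of 12 were called without the block. With the block and without embryo 1, 2 of 12 were called lower, beside 0.855% of all genes. F44E5.5 was 1 of these (log2 fold change -3.78, adjusted p = 0.0295).

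**Figure D5:**
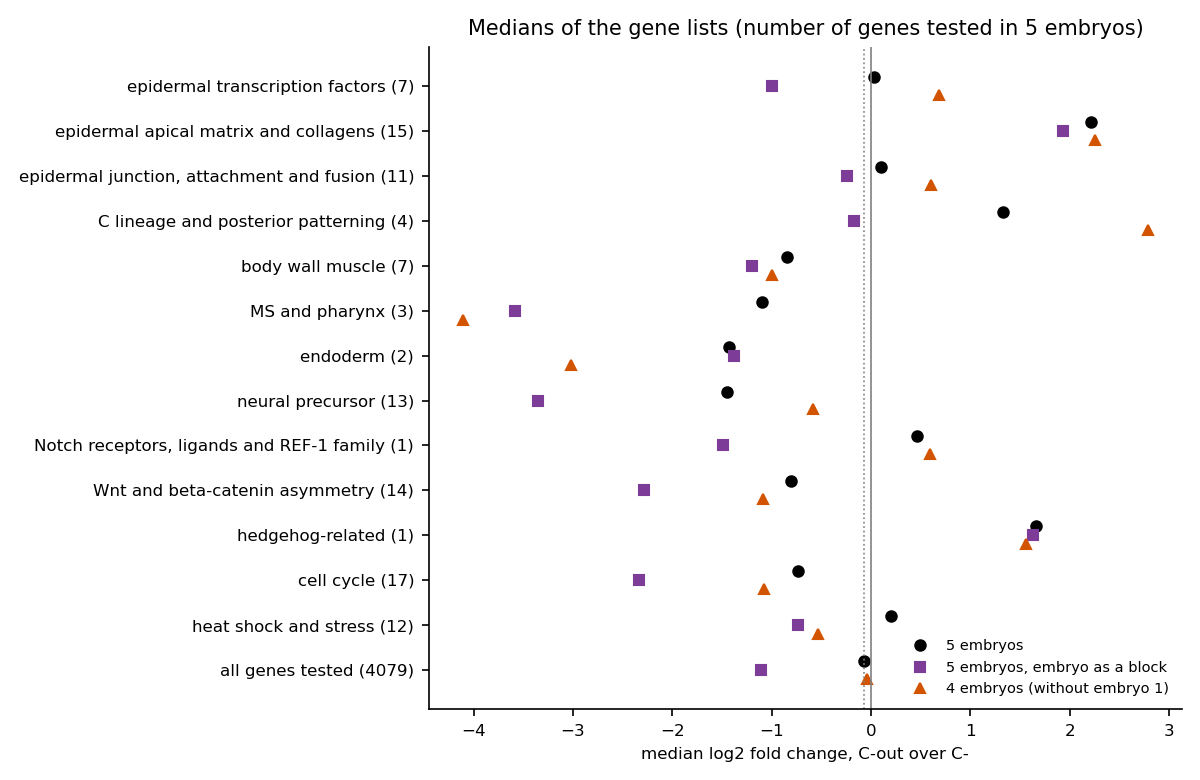
Median log2 fold change of C-out over C- for each gene list and for all genes tested, without pairing (circles), with the embryo as a block (squares) and without embryo 1 (triangles), with the number of tested genes in parentheses and a dotted line at the median of all genes without pairing. The apical matrix list lies at 2.22, 1.93 and 2.25, and the block moves the median of all genes to -1.10.

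Against C-in, the sister cells that form muscle, several of the same epidermal genes were called higher. Of 2208 genes tested without the block 104 (4.71%) were called higher in C-out and 21 (0.951%) lower, and both comparisons use the same 5 C-out libraries. Of the 28 genes called higher over C- with the block, 23 were tested against C-in, and 15 were called higher there and 0 lower. R02D3.1, pdi-2, C06A8.3, R11A5.4, pyk-2, Y43F8B.2, lbp-1 and T27D12.1 were tested and not called (adjusted p of 0.224 to 0.906), and their C-in values overlapped C-out. dpy-14 had 223, 123, 142, 269 and 149.96 RPKM in C-in and a log2 fold change of C-out over C-in of 5.32 ± 0.57 (adjusted p = 3.93e-05), and noah-1 had 13.1, 8.59, 8.66, 21 and 7.95 RPKM and 6.38 ± 0.71 (adjusted p = 4.17e-05). cutl-2 had 27.7, 23.1, 30.6, 52.4 and 23.9 RPKM in C-in (6.18 ± 0.73, adjusted p = 6.18e-05), wrt-10 had 43.3, 47, 25.8, 85.1 and 33.2 (5.69 ± 0.77, adjusted p = 3.05e-04) and elt-3 had 1.71, 0.82, 2.13, 6.62 and 2.01 (7.81 ± 1.37, adjusted p = 0.00131). In these 5 genes every C-out library, replicate 1 included, lay above every C-in library. The muscle factor unc-120 had 1251, 149, 946, 1045 and 828 RPKM in C-in and 65.3, 1.82, 3.79, 104 and 16.6 in C-out (-4.62 ± 1.11, adjusted p = 0.0143), and hlh-1 was also called lower in C-out (-4.37 ± 1.16, adjusted p = 0.026). cki-2 had 5.01, 13.1, 5.35, 13.9 and 5.06 RPKM in C-in, below every C-out library (6.01 ± 1.19, adjusted p = 0.0033). elt-1 was at most 9.06 RPKM in C-in and was too low there for the test. lin-26 was not called against C-in (1.67 ± 1.31, adjusted p = 0.652) and had 641 RPKM in C-in replicate 4, against 3.64 to 15.6 in the other C-in libraries. nhr-25, not in that test, had 312 RPKM in C-in replicate 4 and at most 7.54 in the others. The summed RPKM of the 6 epidermis markers was 1106 in C-in replicate 4 and 141 to 329 in the other C-in libraries. The order of the median levels of dpy-14 and noah-1 was C-out, C-, C-in, and neighbouring groups overlapped only between C-out replicate 1 and C-.

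The C-out libraries differed among themselves for several genes of the epidermal program. dpy-14, noah-1 and rmd-2 varied little over replicates 2, 4, 5 and 6 (6465 to 8036, 889.7 to 1077 and 1866 to 2233 RPKM), whereas lin-26 ran over 4.62 to 701, sams-1 over 63.6 to 1935, rhy-1 over 2.41 to 1538 and hlh-14 over 7.51 to 3021. C-out replicate 2 was lowest of these 4 libraries for lin-26, sams-1, rhy-1 and nhr-57 and highest for R02D3.1, alh-9, fah-1, qdpr-1, lbp-1 and let-653. That library had 1550 genes above 25 RPKM, the fewest of the 10. A count of 3 reads corresponded to 0.982 to 7.2 CPM (counts scaled to library size) across the 10 libraries, so that a value of a few RPKM in 1 library is within counting error, and reads amplified without molecular identifiers are not independent molecules.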

How the data were processed

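Each library had a deposited table of read counts and RPKM per gene. The authors made the counts with bedtools on build ce10, per the submitters' processing notes (neither the aligner nor strand use is named), and divided counts by gene length and library size to give the deposited RPKM. Counts on genes were 416394 to 3054633 per library. Here genes above 25 RPKM in at least 5 of the 10 libraries (4 when an embryo was left out) were tested on counts with edgeR 4.0.16 (TMM, quasi-likelihood, two-sided, Benjamini-Hochberg, threshold 0.05). The fit without pairing was the main one. The standard error of a log2 fold change was its size divided by the square root of the F statistic. Because same-numbered libraries came from 1 embryo, by the design text, the replicate number was also fitted as a block, and its values are printed beside the results. Deviations of same-embryo libraries from their group means correlated at 0.034 on average (-0.115 to 0.105), and those of different embryos at -0.008. DESeq2 1.42.0, limma 3.58.1 on log2(RPKM + 25) and log2(RPKM + 1), RLE factors, library totals, other filters and leaving out each embryo were alternatives. Scripts were tested on simulated data.

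The libraries compared and the gene lists were chosen with earlier results of these data known. Genes named in the text are 7 markers, the genes called with the block, the 10 with the smallest unadjusted p in each direction (since 0 passed), list members that passed, up to 2 of each list by mean RPKM, and further list members named after their values were seen. Of 31383 gene names in the files 29322 matched an identifier in Ensembl WBcel235, from which the gene identifiers, chromosomes and overlapping genes are taken. No coordinates are given because the files use ce10.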

Additional observations from a re-analysis of the deposited data

Results flagged for a closer look

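Among the genes named by rule and tested for a library far from the other 4 of its group (25 genes in 54 groups of 5 libraries), 8 values stood off by more than Dixon's critical value of 0.71, where chance flags about 1 in 20 groups. In 5 of them the library was C-out replicate 1. It was the lowest C-out library for dpy-14 (2479 RPKM), noah-1 (373 RPKM) and rmd-2 (479 RPKM), and the highest for atx-3 (5.61 RPKM) and fsn-1 (13.4 RPKM), 2 genes that were low in the other C-out libraries. The remaining 3 were low values with the other libraries near 0: vab-7 at 0.89 RPKM in C-out replicate 2 and at 9.5 RPKM in C- replicate 5, and nhr-171 at 26.3 RPKM in C- replicate 1. What sets these libraries apart was not tested.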

How the results depend on the processing

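With the embryo as a block the calls between C-out and C- went from 0 to 28 higher and 2 lower. DESeq2 gave 448 higher and 8 lower (207 and 254 with the replicate block, 369 and 217 without embryo 1). Without a filter on low values edgeR gave 234 and 10, limma on log2(RPKM + 25) gave 20 and 12 (73 and 478 without embryo 1), and limma on log2(RPKM + 1) gave 1 higher and 0 lower. Leaving out 1 embryo gave 0 to 37 higher calls, the most without embryo 1 and 1 without embryo 6, and lower calls without embryo 1 only (4.43% of the genes tested). Leaving out the C-out library of embryo 1 alone gave 76 and 421. In the fit with the block, leaving out embryos 1, 2, 4, 5 and 6 in turn gave 40, 23, 6, 10 and 21 higher calls, with 33 lower without embryo 1 and 0 otherwise. RLE size factors, library totals, a filter of 3 libraries and 3 groups in 1 fit gave 0 in either direction. For C-out against C-in, DESeq2 gave 134 lower calls against 21, and leaving out 1 embryo gave 73 to 177 higher and 1 to 60 lower. The cause of these differences was not tested. The log2 fold change of elt-1 turned from -0.85 to 1.00 with DESeq2, 1.00 with RLE size factors, 0.39 without embryo 4 (from -1.62 over the embryos left out) and 1.54 with DESeq2 without embryo 1, and that of lbp-1 against C-in ran from -0.10 without embryo 2 to 0.73 without embryo 1. The log2 fold change of fat-3 was -1.95 with the block and 0.25 with DESeq2. No other gene followed through all the alternatives turned its sign. Other named genes, fat-3, fat-4, elo-1 and lbp-5 among them, were not followed through all of the alternatives, and some of these turned as well. Without the block and with it, the log2 fold change was 0.03 and -0.99 for nhr-25, 0.46 and -1.49 for lag-1 and 0.28 and -0.02 for hif-1. That of F44E5.5 was -0.39 without the block and 0.02 with DESeq2. The alternatives with the block that left out an embryo, DESeq2 with the block, and DESeq2 and limma without embryo 1 were chosen after the data had been seen. Depth limits genes of a few RPKM, above all in C-out replicate 5, which had 416394 reads on genes.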
